A study of Mus musculus with 34 samples.

Results

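Lungs that had received 18 µg of 1 of 3 carbon nanotube materials were pooled and compared with control lungs, to describe the low-dose response that the materials have in common. The comparison holds 14 arrays at 18 µg and 5 arrays at 0 µg, 19 of the 34 arrays of the series, and its arrays were assigned by their dose and treatment labels. Of the 14 arrays, 5 were of NRCWE-043, 6 of NRCWE-044 and 3 of NRCWE-045, and each material was given the same weight whatever its number of arrays. The other 15 arrays, at 54 µg, enter the estimate of the spread and are printed beside the low-dose values. The lower of these doses, 18 µg, is called the medium dose in the labels.

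All mice were female C57BL/6, 5 to 7 weeks old per the labels, given 1 intratracheal instillation of material in 40 µl, and the lungs were taken 28 days later. The labels do not say what was given to the control mice. Of the 5 control arrays, 1 (control replicate 3) is titled NRCWE-043 at 0 µg, and its treatment label is Control. Frozen lung was cut at random for RNA, so an array samples part of a lung, and the heart and liver were also collected. Each array measured lung RNA in Cy5 against a reference RNA in Cy3, pooled from 11 lines of mouse cells, with the dyes never swapped, and all levels below are log2 ratios to that reference.

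Carbon nanotubes that reach the alveoli are taken up by macrophages, which degrade them slowly or not at all. The best known responses of the mouse lung to them are an influx of neutrophils and monocytes drawn by chemokines, an acute phase response led by serum amyloid A, the build-up of lipid-laden macrophages, lymphocyte aggregates around the airways and the deposition of collagen. Some of these fade within days of an instillation and others last for months.

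Lung markers were bright on every array. Sftpc, the surfactant gene of alveolar type 2 cells, was 7.93 to 8.86 above the reference on the log2 scale over the 19 arrays, and Ager of type 1 cells was 5.63 to 6.59. Scgb1a1 of club cells was at 7.24 to 8.51 and the endothelial cadherin Cdh5 at 5.49 to 6.71. The ciliated cell regulator Foxj1 was at 2.24 to 3.93, and all of these were well above background on all 34 arrays. The share of probes with Cy5 signal well above background was 50.8 to 66.6% over the arrays. Within groups, the correlation of arrays across units was 0.924 to 0.976, and units are not independent replicates. Among the exposed arrays, 3 stood apart in the lists described further on. NRCWE-043 replicate 3 had the highest CC chemokine score, 0.89 against at most 0.47 elsewhere at 18 µg, and NRCWE-045 replicates 1 and 2 carried liver and fat cell markers. With any 1 of the 19 arrays left out, no gene was called in the pooled comparison.

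No gene was called between the pooled 18 µg lungs and the controls. Of 29330 units tested (17156 named genes and 12174 accessions without a name), 0 (0%) had an adjusted p under 0.05 in limma, and the smallest adjusted p was 0.999. At an unadjusted p under 0.05, 541 units (1.84%) were higher and 610 (2.08%) lower, 1151 in all (3.92%), where an even spread of p-values gives 1466.5. The median standard error of a pooled log2 difference was 0.094, and the 95% interval of a typical unit reached 0.19 to either side of its value.

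**Figure D1:**
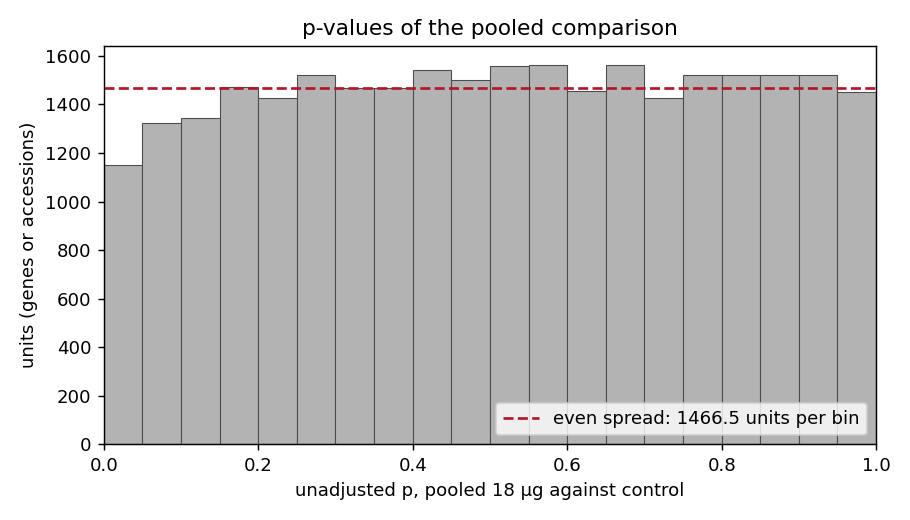
Number of units (vertical axis) in bins of the unadjusted p of the pooled 18 µg comparison with the controls (horizontal axis, 20 bins), with a dashed line at an even spread of 1466.5 units per bin. The bin nearest 0 holds 1151 units, fewer than the line.

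Slide was taken as a block because the arrays lay on 6 slides with a separate scan day for each, and because slide passed the test in 14148 units (48.2%). With slide as a fixed block, again 0 units (0%) were called, and the smallest adjusted p was 0.706. The units at an unadjusted p under 0.05 were then 983 higher (3.35%) and 861 lower (2.94%), 6.29% in all. With slide as a random block (consensus correlation 0.29) 0 were called and 1681 were at an unadjusted p under 0.05. Controls shared a slide with 18 µg arrays on 4 of the slides. Within slides, the comparison rests on 2 controls and 3 exposed arrays on slide 1, 1 and 4 on slide 2, and 1 and 1 on slides 3 and 5. Slides 4 and 6 held 5 exposed arrays and no control.

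Because nothing was called, the genes named below were taken by rank, and their order is a description of these 19 arrays. They are the 12 named genes of lowest p in each direction among those with the same sign for all 3 materials. Over all units, 6139 (20.9%) were higher with all 3 materials and 6778 (23.1%) lower. The 3 differences share the same controls, so a common sign is no independent support.

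Tspan32, a tetraspanin of blood cells, had the lowest p on the higher side. It was at -0.54, -1.29, -0.93, -0.86 and -0.71 in the 5 controls and at -0.73 to 0.22 (median -0.31) in the 14 exposed lungs. Of these, 11 lay above every control, and the groups overlapped. The pooled log2 difference was 0.56 ± 0.12 (SE, limma, n = 14 against 5, p = 8.7e-05 and 0.999 after Benjamini-Hochberg adjustment), with 0.47 for NRCWE-043, 0.58 for NRCWE-044 and 0.62 for NRCWE-045, the order used below where values are given by material. Other probes of Tspan32 gave 0.27 and 0.31.

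Ptpn22, a phosphatase that restrains antigen receptor signalling, was at -1.33, -2.05, -1.63, -1.497 and -1.45 in the controls and at -1.71 to -0.63 (median -1.04) at 18 µg. Its difference was 0.50 ± 0.13, and 11 exposed arrays lay above every control. Plcl2, a phospholipase-like protein that dampens B cell receptor signalling, had 0.47 ± 0.11, with 10 arrays above every control. Slc16a6, a monocarboxylate transporter, had 0.43 ± 0.11 and also 10 arrays above every control, while its other probe gave 0.18.

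The kinases that carry the signal of the T and B cell receptors were both among the 12. Zap70, which acts below the T cell receptor, was at -0.51, -0.61, -0.45, -0.52 and -0.53 in the controls and at -0.48 to 0.08 (median -0.24) in the exposed lungs, with 13 of 14 above every control. Its differences were 0.31, 0.31 and 0.34 by material, 0.32 ± 0.09 pooled. Syk, its counterpart below the B cell receptor and Fc receptors, was at 1.70, 1.12, 1.62, 1.69 and 1.77 in the controls and at 1.63 to 2.38 (median 1.97) at 18 µg, again with 13 arrays above every control. It had 0.36, 0.43 and 0.44 by material and 0.41 ± 0.12 pooled. Control replicate 2 was the lowest array in Tspan32, Ptpn22, Zap70 and Syk alike. Without it the differences were 0.45, 0.39, 0.30 and 0.29.

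Plcg2, the phospholipase that Syk activates, was the 1 unit in the higher direction in which all 14 exposed arrays lay above every control (0.00341% of the units). It was not among the 24 ranked genes and is named after its values were seen. The controls reached from -0.38 to 0.07 and the exposed lungs from 0.09 to 0.65 (median 0.23), and the difference was 0.31 ± 0.11. In the lower direction 2 units, both without a gene name, lay below every control on all 14 arrays (0.00682%). At least 12 of the 14 arrays lay above every control in 34 units (0.116%) and below in 44 (0.15%), and at least 10 of them lay above in 249 (0.849%) and below in 305 (1.04%).

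The other 6 genes of the higher side have varied known roles. Hoxc4 and Hoxb8, homeobox genes of the body axis, had 0.60 ± 0.16 and 0.37 ± 0.10, each with 13 arrays above every control. Hoxc4 was dim, at -3.92 to -3.56 in the controls and well above background on 28 of 34 arrays. Ap5b1, an adaptor subunit of endosomal sorting, had 0.34 ± 0.09, and Ins2, an insulin gene, 0.37 ± 0.11. Grid2ip and Gm9767 had 0.30 ± 0.08 and 0.25 ± 0.07. Hoxb8 and Grid2ip were also not well above background on every array. From the scanner's processed signals Hoxb8 had 1.06 and Grid2ip 1.07.

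Tcf21, a transcription factor of lung fibroblasts and their precursors, had the largest difference among the 12 lower genes. It was at 4.46, 4.40, 4.16, 4.85 and 4.64 in the controls and at 3.22 to 4.42 (median 3.90) in the exposed lungs, with 12 of 14 arrays below every control. The pooled difference was -0.68 ± 0.19, with -0.72, -0.46 and -0.86 by material. With slide as a block it was -0.50, and within the slides that held controls it ran from -1.07 to -0.32.

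Prkch, a protein kinase C isoform found in epithelium and endothelium, was at 2.29, 2.29, 1.82, 2.29 and 1.91 in the controls and at 1.17 to 2.17 (median 1.58) at 18 µg. Its difference was -0.50 ± 0.13, and 11 arrays lay below every control. Abcb1a, a drug efflux pump of endothelium and other barriers, was at 3.15, 3.13, 2.51, 2.52 and 2.51 in the controls and at 1.49 to 2.61 (median 2.35) in the exposed lungs, a difference of -0.48 ± 0.14. Both of its highest controls lay on slide 1, and the difference was -0.62 there, -0.45 on slide 2, 0.06 on slide 3 and -0.11 on slide 5.

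Tfdp2, a partner of the E2F cell cycle factors, had -0.30 ± 0.08 with 13 arrays below every control, but its other probe gave -0.03. Schip1, a scaffold of the cell cortex, had -0.30 ± 0.09 and the zinc exporter Slc30a1 -0.25 ± 0.07, each with 11 arrays below every control. Zfp280b had -0.24 ± 0.06, the flavin monooxygenase Fmo4 -0.22 ± 0.06 and Swsap1, a DNA repair gene, -0.23 ± 0.07. Fmo4 was not well above background on every array and had -0.44 from the scanner's processed signals. The golgin gene Gcc1 had -0.23 ± 0.07 and 0.06 at its other probe. Cyp1a1, the dioxin-inducible monooxygenase, had -0.55 ± 0.16, but it was well above background on 2 of the 5 controls and 3 of the 14 exposed arrays, and 1 array of slide 3 had no value. Its controls were at 1.44 and 1.40 on slide 1 and at 0.10 to 0.44 elsewhere, and the difference was -0.9955 on slide 1, -0.04 on slide 2 and -0.06 on slide 5. Without control replicate 1 it was -0.37. Fsd2 also met the rank, and no fold is given because it was not well above background on any of the 19 arrays.

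**Figure D2:**
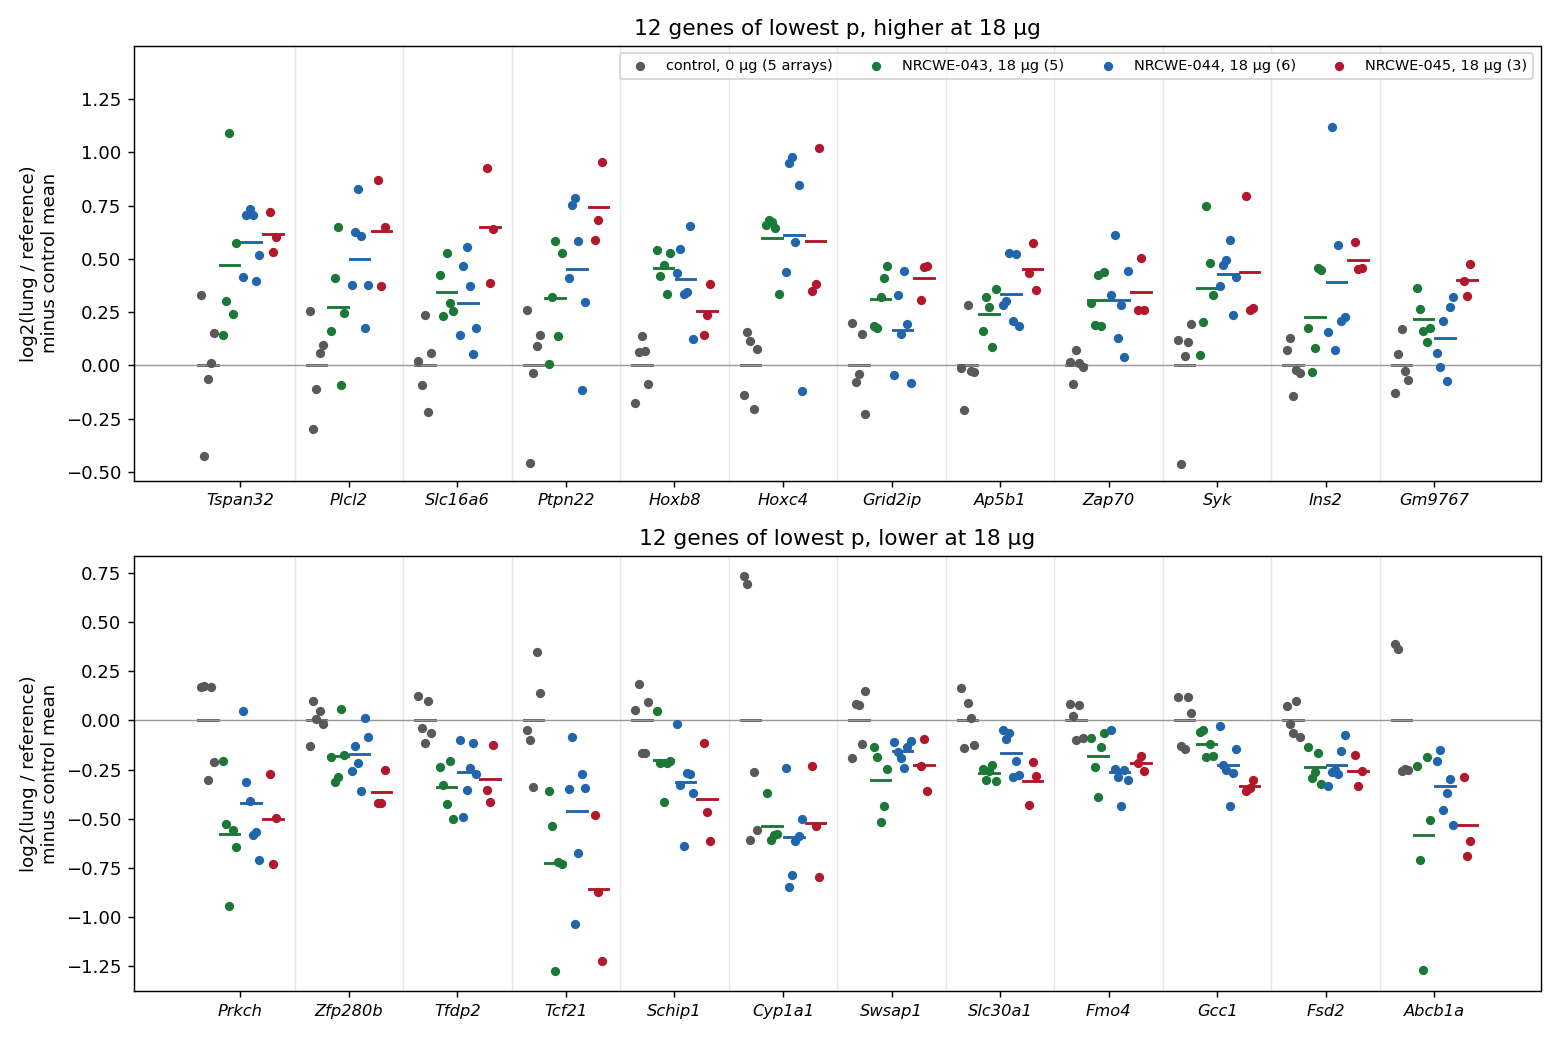
Log2 ratio to the reference minus the mean of the controls (vertical axis) for the 12 genes of lowest p on the higher side (top) and the lower side (bottom), with 1 point per array and a short line at each group's mean. Hoxb8, Hoxc4, Zap70 and Syk have 13 of 14 exposed arrays above every control, and the control arrays of Syk include 1 low value of 1.12 on the log2 ratio scale.

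The promoters of 4 of these genes are shown because Tspan32 had the lowest p, Syk and Zap70 had 13 of 14 exposed arrays above every control, and Tcf21 had the largest difference among the 12 lower genes. They are the 300 bases around the most upstream start that RefSeq lists on GRCm38.p6, most of them before the start. Capitals mark the letters TGTGGT, the core bound by RUNX factors, and AGGAAG, a core bound by ETS factors, searched on both strands (as ACCACA and CTTCCT on the other). These 2 motifs share no position in the sequences shown.
Tspan32, chr7:143004796-143005095, plus strand: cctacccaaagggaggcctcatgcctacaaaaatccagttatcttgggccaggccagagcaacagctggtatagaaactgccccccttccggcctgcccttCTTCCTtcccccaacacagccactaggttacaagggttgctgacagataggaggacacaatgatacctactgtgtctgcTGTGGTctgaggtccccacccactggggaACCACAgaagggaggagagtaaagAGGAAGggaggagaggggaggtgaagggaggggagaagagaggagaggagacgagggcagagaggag
Syk, chr13:52583187-52583486, plus strand: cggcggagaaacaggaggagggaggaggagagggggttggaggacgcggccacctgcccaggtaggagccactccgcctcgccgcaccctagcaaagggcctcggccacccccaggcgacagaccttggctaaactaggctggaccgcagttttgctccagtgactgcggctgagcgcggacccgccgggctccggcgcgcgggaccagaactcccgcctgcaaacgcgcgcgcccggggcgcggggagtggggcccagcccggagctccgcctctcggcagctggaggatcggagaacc
Zap70, chr1:36761548-36761847, plus strand: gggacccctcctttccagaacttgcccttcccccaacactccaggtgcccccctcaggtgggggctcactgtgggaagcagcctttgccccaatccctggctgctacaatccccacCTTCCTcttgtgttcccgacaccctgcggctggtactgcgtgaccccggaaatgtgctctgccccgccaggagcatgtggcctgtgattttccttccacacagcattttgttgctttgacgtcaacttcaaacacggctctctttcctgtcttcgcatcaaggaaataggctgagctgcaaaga
Tcf21, chr10:22820094-22820393, minus strand: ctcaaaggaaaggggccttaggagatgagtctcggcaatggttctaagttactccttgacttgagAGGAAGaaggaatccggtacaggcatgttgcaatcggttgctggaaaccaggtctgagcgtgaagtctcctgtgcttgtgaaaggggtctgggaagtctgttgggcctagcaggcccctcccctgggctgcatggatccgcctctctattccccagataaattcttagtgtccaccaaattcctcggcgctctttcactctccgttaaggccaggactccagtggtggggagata
Tspan32 held both motifs, 2 matches of each, while Zap70 and Tcf21 held 1 match of the ETS core each and Syk held none of either. A promoter was listed for 9 of the 12 higher and 11 of the 12 lower genes. The RUNX letters were in 1 of the 9 (11.1%) and 1 of the 11 (9.09%), against 16.8% of all 32851 promoters of this length. The ETS letters were in 4 of the 9 (44.4%) and 4 of the 11 (36.4%), against 35.4% of all. The share of all counts every listed start, while each leading gene enters only with its most upstream start, so the sets are unlike. A match is a description of the sequence and not a bound site.

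B and plasma cell genes had the highest median of the immune lists. Of 17 tested, 16 were above 0, where 50.3% of all units were, and 15 were above 0 with each material (20.9% of all units). Their median log2 difference was 0.27, against 0.00085 over all units, with 0.14, 0.30 and 0.38 by material. An unadjusted p under 0.05 was reached by 3 of them (higher, 1.84% of all units) and by none in the other direction, and 0 were called. The lists were chosen with earlier results of these data known, and the materials share the same controls. Counts within lists, here and below, are therefore no independent support. Ms4a1, the B cell antigen CD20, was at -0.17, -1.62, -0.08, -0.57 and -0.06 in the controls and at -0.92 to 1.28 (median 0.18) at 18 µg. Its difference was 0.77 ± 0.25, with 10 exposed arrays above every control, and was 0.49 without control replicate 2. Cd79b, a chain of the B cell receptor, had 0.62, and Pou2af1, a B cell coactivator, 0.53. Jchain, which joins antibody subunits in plasma cells, had 0.37 ± 0.36, and 0.21 without NRCWE-043 replicate 3 or without NRCWE-045 replicate 1.

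T cell genes gave a like picture, with a median of 0.17. Of 20 tested, 16 were above 0 (50.3% of all units) and 14 above 0 with each material (20.9%). An unadjusted p under 0.05 was reached by 6, all on the higher side (1.84% of all units), among them Zap70, Lck, Cd3g, Cd6 and Cd28. Lck, the kinase that starts T cell receptor signalling, was at -0.09, -1.11, -0.18, -0.85 and -0.45 in the controls and at -0.81 to 0.44 (median -0.02) in the exposed lungs, a difference of 0.47 ± 0.18. Without control replicate 2 the Lck difference was 0.33. Cd3g, a chain of the receptor itself, had 0.36, and the costimulatory receptor Cd28 had 0.23. Without NRCWE-045 replicate 1 the T cell median was 0.11. Genes of lymphoid homing had a median of 0.18, with 8 of 10 above 0, and 0.11 without that array. Among them the homing receptor Ccr7 had 0.50 ± 0.21 and the lymphotoxin chain Ltb 0.44 ± 0.21, which were 0.30 and 0.28 without control replicate 2. The B cell chemokine Cxcl13 had 0.16 ± 0.44, and -0.33 without NRCWE-045 replicate 1.

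A score for each array, the median over a list's genes after the control mean of each gene was taken off, was used to see which lungs carried these values. The B and plasma cell score ran from -0.29 to 0.18 in the controls and from -0.26 to 1.20 in the exposed lungs, where 8 of 14 lay above every control. The array at 1.20 was NRCWE-045 replicate 1, and without it the list median was 0.17. The T cell score ran from -0.20 to 0.14 in the controls and from -0.12 to 0.36 at 18 µg, with 9 arrays above every control. The medians were 0.37 and 0.24 with slide as a block, and within slides 1, 2, 3 and 5 the B and plasma cell median was 0.70, 0.17, 0.30 and 0.21. In whole lung RNA, more cells of a type and more RNA per cell cannot be told apart.

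Macrophage genes were only slightly displaced. In the list of lipid handling and lysosome genes 20 of 25 were above 0, with a median of 0.099, and 6 exposed arrays had a score above every control. Abcg1, a cholesterol exporter, was at 2.48, 2.13, 2.01, 2.11 and 2.26 in the controls and at 2.01 to 2.99 (median 2.58) at 18 µg, a difference of 0.29 ± 0.12. The scavenger receptor Msr1 had 0.37 ± 0.16, with 0.16 at its other probe and 0.21 without control replicate 2, and the lysosomal protease Ctss had 0.35. Trem2, a lipid-sensing receptor of foamy macrophages, had 0.30 ± 0.26, ran from 0.13 to 0.46 with 1 array left out, and lay above every control on 2 of 14 arrays. Monocyte and interstitial macrophage genes had a median of 0.078 (13 of 17 above 0), which was 0.027 without control replicate 2, and alveolar macrophage genes -0.0066 (6 of 14 above 0). Cholesterol synthesis genes had a median of 0.093 with 20 of 23 above 0, among them the regulator Srebf2 at 0.28 ± 0.13, but a median of -0.03 with NRCWE-044.

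Acute phase and chemokine genes, which mark the early response to nanotubes, were spread widely at this dose and time. Saa3, the serum amyloid A of the lung, was at -3.14, -4.02, -4.43, -3.72 and -4.02 in the controls and at -4.31 to -2.04 (median -3.58) in the exposed lungs, where 4 of 14 lay above every control. Its difference was 0.51 ± 0.43. Saa1 had 0.35 ± 0.18, with 0.80 for NRCWE-045 and 0.12 for each of the others, and was 0.18 without NRCWE-045 replicate 2. The acute phase list had a median of 0.16 (9 of 12 above 0), with 0.63 for NRCWE-045 against 0.02 and -0.0078 for the others, and was 0.053 without NRCWE-045 replicate 2. CC chemokines and their receptors had a median of 0.15 (11 of 16 above 0), with 0.065 without NRCWE-043 replicate 3 and 0.056 without control replicate 2. Ccl2, which draws monocytes, had 0.04 ± 0.25, and the neutrophil attractants Cxcl1 and Cxcl5 had 0.30 ± 0.33 and 0.25 ± 0.59. Without NRCWE-043 replicate 3 these were 0.16 and 0.14. Lcn2, a neutrophil and epithelial iron-binding protein, had 0.04 ± 0.24.

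Inflammatory cytokine and inflammasome genes had a median of 0.14, which was 0.052 without control replicate 2. Of 21 tested, 17 were above 0 (50.3% of all units) and 14 above 0 with each material (20.9%). Il1rn, the interleukin 1 receptor antagonist, had 0.17 ± 0.06, but it was well above background on 13 of 34 arrays. Casp4, a caspase of the noncanonical inflammasome, had 0.26 ± 0.14, and Il1b 0.27 ± 0.26, which was 0.057 without NRCWE-045 replicate 1. Cell cycle genes had a median of 0.11 (24 of 27 above 0), with the replication helicase subunit Mcm6 at 0.20 ± 0.11 and the mitotic kinesin Kif11 at 0.27 ± 0.14. The cell cycle median was -0.00070 with quantile normalization, 0.046 without control replicate 3 and 0.22 without control replicate 1. Interferon-stimulated genes had a median of -0.0043, with 12 of 26 above 0, and -0.086 and 0.11 without control replicates 3 and 1.

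Genes of matrix, oxidative stress and DNA damage showed no common shift. Extracellular matrix and fibrosis genes had a median of -0.01, with 12 of 26 above 0. In this list Col1a1, the main fibrillar collagen, had -0.04 ± 0.17, the protease inhibitor Timp1 0.07 ± 0.15 and osteopontin (Spp1) -0.15 ± 0.18, while Postn, a matrix protein of activated fibroblasts, had -0.32 ± 0.15. Oxidative stress and metallothionein genes had a median of -0.03 (6 of 16 above 0), with heme oxygenase Hmox1 at -0.03 ± 0.16 and 0.25 at its other probe. Targets of p53 had a median of -0.03 (5 of 15 above 0). Mmp12, the macrophage elastase, had 0.02 ± 0.11 and was well above background on 11 of 34 arrays.

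The fibroblast, endothelial, club and ciliated cell lists had medians below 0, in the pooled comparison and under each of the 35 other settings. Within slide 1, which held 2 controls, their medians were -0.04, -0.14, 0.15 and 0.11 in that order. They were below 0 on the other slides that held controls. Fibroblast genes had the lowest median of the pathway and cell type lists, -0.26. Of 19 tested, 15 were below 0 (49.7% of all units were) and 11 below 0 with each material (23.1%). An unadjusted p under 0.05 was reached by 3, Tcf21, Col13a1 and Itga8, all lower (2.08% of all units). Col13a1, a collagen of alveolar fibroblasts, was at 1.05, 1.04, 0.64, 0.80 and 0.73 in the controls and at -0.03 to 1.01 (median 0.43) in the exposed lungs, a difference of -0.38 ± 0.13. The integrin chain Itga8 had -0.53. The fibroblast median was -0.099 with slide as a block, and without control replicate 1 it was -0.14.

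Endothelial genes had a median of -0.16, with 19 of 21 below 0 (49.7% of all units) and 11 below 0 with each material (23.1%). Ednrb, an endothelin receptor of lung capillaries, was at 3.18, 3.27, 2.95, 3.07 and 3.20 in the controls and at 2.00 to 3.14 (median 2.73) at 18 µg, with 10 arrays below every control. Its difference was -0.46 ± 0.16 and its other probe gave -0.53. Prx, a scaffold protein of capillary endothelium, had -0.25 ± 0.11, and the junction proteins Cdh5 and Pecam1 had -0.37 and -0.30. The endothelial median was -0.11 with slide as a block and -0.06 with median centring in place of loess.

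The median of alveolar type 1 genes was -0.095 (10 of 12 below 0), which was 0.02 with median centring, and type 2 genes -0.0013 (7 of 14 below 0). Of the latter, Slc34a2, a phosphate transporter, had -0.34 ± 0.14 but 0.12 from the scanner's processed signals, and Scd1, a fatty acid desaturase, had -0.48 ± 0.24. Club cell genes had a median of -0.19 (11 of 13 below 0), made of -0.40 and -0.29 with NRCWE-043 and NRCWE-044 and 0.23 with NRCWE-045. Bpifb1, a secretory protein of the large airways, had -1.78, -2.42 and 0.56 in that order, -1.21 ± 0.68 pooled. Ciliated cell genes had a median of -0.12 (14 of 17 below 0), with Foxj1 at -0.28 ± 0.23 and at -0.15 without control replicate 2. Without control replicate 5 the club median was -0.37. Without NRCWE-043 replicate 3 the club and ciliated medians were -0.07 and -0.05. With slide as a block they were -0.16 and -0.05.

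**Figure D3:**
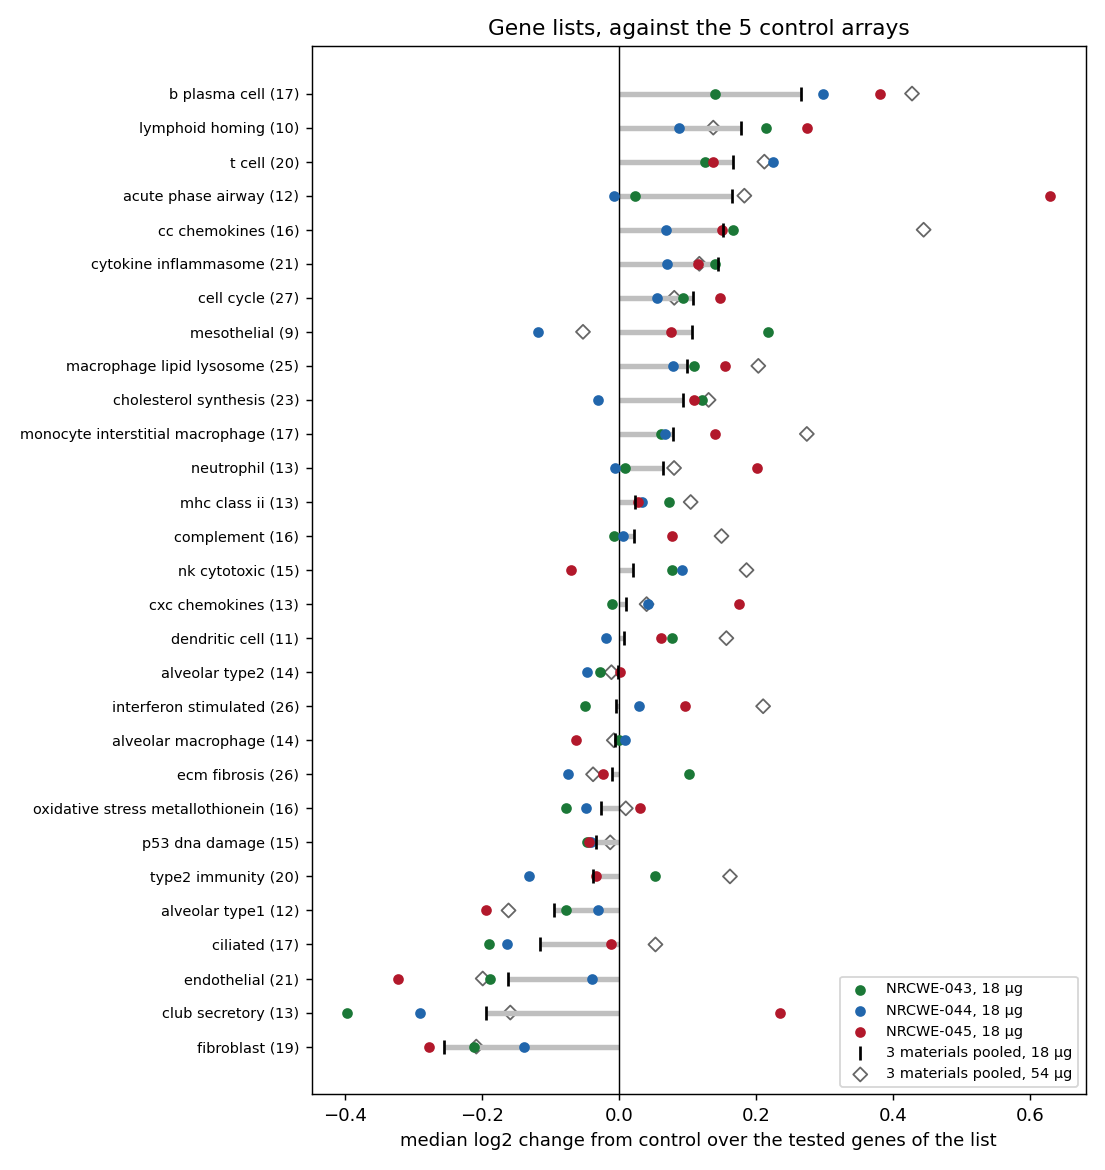
Median log2 difference from the 5 controls over the tested genes of each pathway and cell type list (horizontal axis; number of genes in brackets), for each material at 18 µg (dots), the 3 pooled at 18 µg (black ticks with grey bars) and the 3 pooled at 54 µg (open diamonds). B and plasma cell genes lie highest at 0.27 and fibroblast genes lowest at -0.26 in the pooled 18 µg comparison.

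Scores of heart muscle, liver and fat markers spread more widely over the arrays than that of any lung list. All 13 tested heart muscle genes were below 0, with a median of -1.05. Myh6, the atrial myosin heavy chain that is also made in the muscle of the large pulmonary veins, was at 5.97, 4.15, 5.88, 5.48 and 4.62 in the controls and at -0.09 to 6.10 (median 1.49) in the exposed lungs. The pooled difference was -2.79 ± 1.18, while its other probe gave -0.36, and 10 exposed arrays lay below every control. The heart muscle score ran from -1.07 to 1.14 in the controls and from -1.91 to 1.16 at 18 µg. Within slides 1, 2, 3 and 5 the list median was -0.75, -1.16, -2.29 and -0.80.

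Liver-secreted genes had a median of 0.61 with 13 of 13 above 0, with 1.97 for NRCWE-045 and -0.03 for each of the others. The liver score was 4.81 in NRCWE-045 replicate 2, 0.70 in its replicate 1 and 0.23 in its replicate 3, and between -0.15 and 0.09 in the other 16 arrays. Serpina1a, a liver protease inhibitor with near-identical copies whose signal a probe may share, had 3.16 ± 0.67 for NRCWE-045. Without replicate 2 the list median was 0.15. Fat cell genes had a median of -0.079 (10 of 14 below 0), with scores of 1.78 and 1.26 in NRCWE-045 replicates 1 and 2 and of -0.69 to 0.62 elsewhere. Without NRCWE-045 replicate 2, Tcf21 was at -0.68 and Tspan32 at 0.57. The part of these tissues in the differences above was not tested, and leaving out 1 array does not test it.

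**Figure D4:**
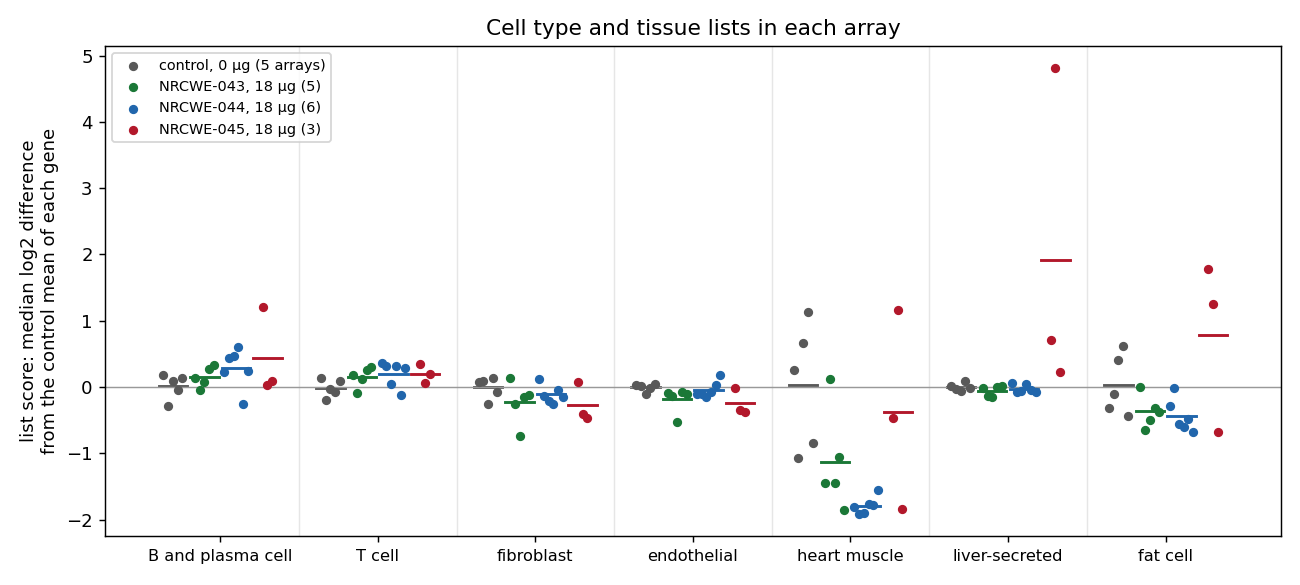
Score of each array (vertical axis, median log2 difference from the control mean over the genes of a list) for 4 lung cell type lists and 3 lists of other tissues, with 1 point per array and a line at each group's mean. Heart muscle scores of 10 of 14 exposed arrays lie below every control, and the liver score of 1 NRCWE-045 array reaches 4.81.

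The materials were then compared with each other at 18 µg, without use of the controls. A moderated F test among the 3 called 16 units of 29330 (0.0546%), of which 9 genes are named here, and 2439 (8.32%) had an unadjusted p under 0.05. No unit was called with slide as a block (0%), with adjusted p of 0.078 to 0.102 for these 16 units and 2931 units (9.99%) at an unadjusted p under 0.05.

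NRCWE-043 was the farthest from the controls in 4 of the 9 genes. Clmp, an adhesion molecule of epithelial junctions, was at -0.84, -0.81, -0.17, -0.92 and -0.25 with NRCWE-043, at -1.65 to -1.29 (6 arrays) with NRCWE-044 and at -1.09, -1.17 and -1.16 with NRCWE-045. Against the controls these were 0.77, -0.09 and 0.24. Spon2, a secreted matrix protein of innate immunity, had 1.68, -0.41 and -0.09 in that order, the tetraspanin Tspan4 -0.79, 0.40 and -0.03, and the ubiquitin ligase gene Lonrf1 -0.29, 0.23 and 0.04. In these 3 genes NRCWE-045 replicate 1 (-0.40, -0.50 and 0.13) lay within the range of the NRCWE-043 arrays and away from the other NRCWE-045 arrays, which were at -2.74 and -3.15 in Spon2.

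NRCWE-045 was the farthest from the controls in the other 5. Serpina1a and its near copy Serpina1c had 3.16 and 2.63, against -0.18 and -0.24 with NRCWE-043 and -0.11 and -0.13 with NRCWE-044. Tdh, a threonine dehydrogenase, had 0.34, and Acot2, a mitochondrial thioesterase, -0.45. Mei4, a meiosis gene, had -0.26, 0.15 and 0.28, and was well above background on 0 of the 5 NRCWE-043 arrays. All adjusted p of the F test were 0.042 to 0.043 (limma, 3 groups of 5, 6 and 3 arrays). The number of calls was 0 without NRCWE-043 replicate 2 and 234 without NRCWE-043 replicate 4.

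**Figure D5:**
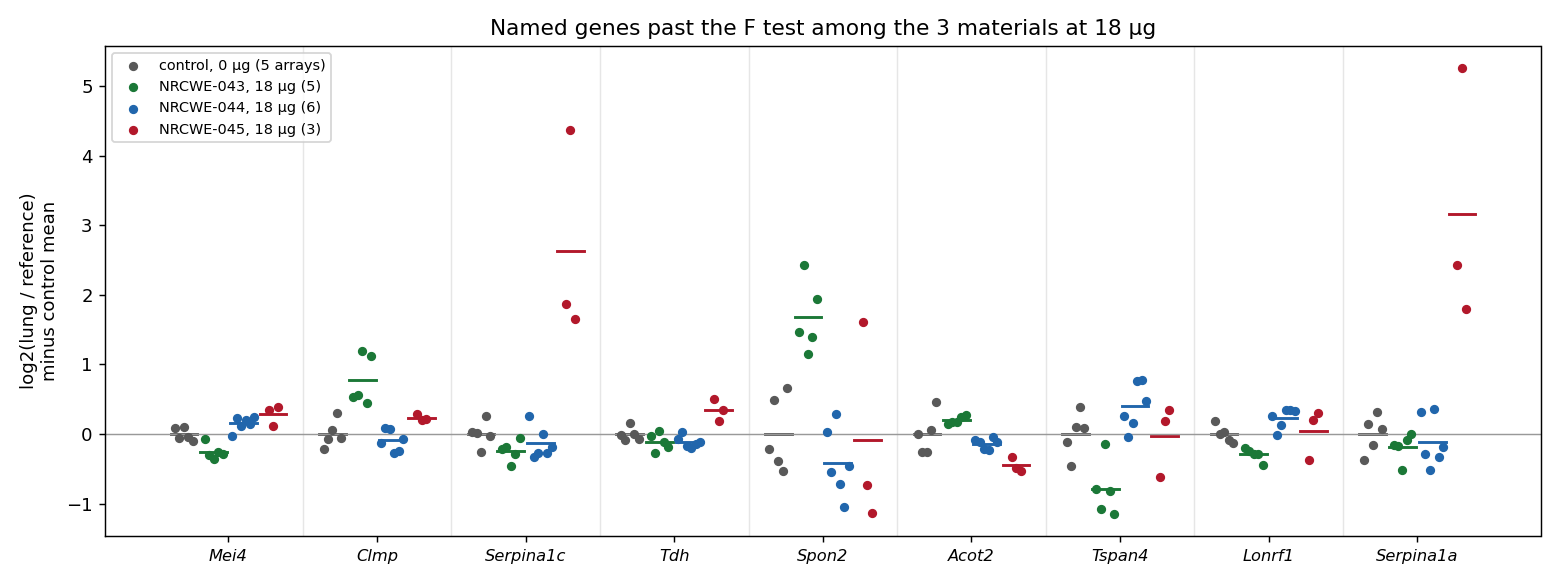
Log2 ratio to the reference minus the mean of the controls (vertical axis) for 9 named genes that passed the F test among the materials at 18 µg, with 1 point per array and a line at each group's mean. NRCWE-045 replicate 1 lies with the NRCWE-043 arrays in Spon2, and the 3 NRCWE-045 arrays stand above all others in Serpina1a and Serpina1c.

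Each material alone against the controls also gave 0 calls at 18 µg (0% each). Units at an unadjusted p under 0.05 numbered 1278 (4.36%) for NRCWE-043, with 486 higher (1.66%) and 792 lower (2.7%). For NRCWE-044 they numbered 919 (3.13%), 476 higher (1.62%) and 443 lower (1.51%), and for NRCWE-045 2327 (7.93%), 1486 higher (5.07%) and 841 lower (2.87%). NRCWE-045, with 3 arrays, gave 109 calls without its replicate 3.

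At 54 µg the same materials pooled gave 0 calls against the same controls (0%), with 1644 units (5.61%) at an unadjusted p under 0.05, 835 higher (2.85%) and 809 lower (2.76%). The direct comparison of 54 with 18 µg, which does not use the controls, also called 0 (0%), with 541 units higher (1.84%) and 548 lower (1.87%), 3.71% in all, at an unadjusted p under 0.05. Side by side, Tspan32 had 0.56 at 18 µg and 0.62 at 54 µg, Zap70 0.32 and 0.36, Syk 0.41 and 0.41, Ms4a1 0.77 and 0.74, Tcf21 -0.68 and -0.71, and Ednrb -0.46 and -0.48. The difference between the doses in Tspan32 was 0.06 ± 0.09, and in Tcf21 -0.03 ± 0.14. Other leading genes lay nearer to 0 at 54 µg. Zfp280b had -0.24 at 18 and -0.04 at 54 µg (difference 0.20 ± 0.05), and Grid2ip 0.30 and 0.12 (-0.18 ± 0.06). Gm9767 had 0.25 and 0.14, and none of these differences passed the test. The leading genes were picked by lowest p at 18 µg, and the same 18 µg arrays enter the difference. A value nearer to 0 at 54 µg can follow from that choice and is not read as an effect of dose.

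The inflammatory genes named here were larger by value at 54 µg in some cases and smaller in others, and none passed the test of the difference. Saa3 had 0.51 at 18 and 1.23 at 54 µg, Trem2 0.30 and 0.86, Jchain 0.37 and 1.11, and Cxcl5 0.25 and 1.04. The eosinophil chemokine Ccl24 went the other way with 0.47 and 0.21, and Cxcl13 had 0.16 and 0.12. The CC chemokine median was 0.15 and 0.44, the monocyte and interstitial macrophage median 0.078 and 0.27, and the interferon-stimulated median -0.0043 and 0.21. The cytokine and inflammasome median was 0.14 and 0.12, the acute phase median 0.16 and 0.18 and the neutrophil median 0.063 and 0.080. Fibroblast genes had -0.26 and -0.21, endothelial genes -0.16 and -0.20 and club cell genes -0.19 and -0.16. Ciliated cell genes changed sign, with -0.12 and 0.05. These pairs share their 5 controls, so an unusual control array moves both values the same way.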

How the data were processed

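Per the labels, lung RNA (200 ng per array, RIN above 7) carried Cy5 and universal reference RNA carried Cy3. Spots were extracted with Agilent Feature Extraction 11.0.1.1, per the file headers, and the deposited files hold median spot intensity per channel and local background, with no between-array step. A deposited series table of log2 ratios served as an alternative. Its scale and direction followed the scanner ratios (correlation across probes of 0.962 to 0.989 over the 19 arrays), its column medians were -0.0345 to -0.0041, and how the authors centred it is not given in the sources used here.

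From these intensities, background was subtracted by normexp (offset 50) and ratios were normalized by loess within arrays in limma 3.58.1 (R 4.3.3, statmod 1.5.0). Of 62976 spots 3671 were controls (weight 0), irregular spots were left out, and repeated spots were averaged. Of 55681 probes 27235 were named through RefSeq accessions (20660 genes) and 28446 were not. The brightest probe of each gene or unnamed accession was kept where at least 3 arrays were well above background in Cy5. That left 29330 units, 114 of them with a missing value on some array, which the fit leaves out. No 2 arrays were identical (0 pairs) and 0 spots were saturated. Median Cy5 intensity was 102 to 165.5 over a background of 69 to 78 on the 19 arrays. Their number limits the precision.

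A linear model of 7 group means over 34 arrays gave the pooled contrast, with limma's moderated test and Benjamini-Hochberg adjustment over all units at 0.05. Positive values are higher at 18 µg. Replicates are numbered in deposit order, and nothing says how sections were assigned to arrays, so p-values measure the spread between arrays, taken as 1 per mouse. The fit was checked on simulated arrays with known changes. Alternatives covered slide, background, normalization, filter, probes, weights, each material and each array of the 19. The 112 named genes are the 12 of lowest p per direction with a common sign, the 2 of lowest p in each of 38 lists (636 entries, 600 tested) and 15 fixed genes. Some genes that met a rule or a test are not reported here. The members and lists were chosen with earlier results of these data known. The plan's mean signals are not what the files hold, so medians were used. Promoters come from RefSeq (GRCm38.p6).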

Additional observations from a re-analysis of the deposited data

Results flagged for a closer look

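Among the 112 named genes and 38 list scores, groups of 4 to 6 arrays were checked for an array far from the others. NRCWE-045 at 18 µg, with 3 arrays, was too small for this check. Its replicate 1 was at 5.28 in Cxcl13 (others 0.58 and 1.07), and its replicate 2 at 3.68 in Arg1 (others 0.55 and 0.64). Of the 450 groups checked, 27 (6%) held an array far from the others, where chance gives about 5%. Of these, 10 were of 1 lung, NRCWE-043 replicate 3. Its log2 ratios were -0.51 in Ccl24, an eosinophil chemokine (-3.39 to -2.92 in the other 4 arrays of its group), -0.24 in Jchain (-2.93 to -2.29) and -0.43 in Trem2 (-2.32 to -1.95). It was at 2.32 in the neutrophil chemokine receptor Cxcr1 (0.01 to 0.63), at 1.85 in the complement regulator Cfp (1.00 to 1.24) and at -1.95 in Irf4, a factor of plasma and dendritic cells (-2.99 to -2.77). Its scores were 0.89 for CC chemokines (others -0.09 to 0.15), 0.46 for macrophage lipid and lysosome genes (0.01 to 0.07), 0.41 for cholesterol synthesis (0.02 to 0.11) and -0.53 for endothelial genes (-0.14 to -0.07). The same array had 0.180% irregular spots, against at most 0.027% on any other array, and the highest median in the authors' deposited series table (-0.0041, next -0.0199). The part of these in its values was not tested.

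Within NRCWE-044, replicate 5 was low in Ccr6 (1.39, others 2.14 to 2.53), Col1a1 (-3.37, others -2.55 to -2.32) and the matrix score (-0.30, others -0.07 to 0.02). Replicate 2 was low in the alveolar type 1 score (-0.29, others -0.01 to 0.11). Replicate 6 was high in Il1rn (0.075) and Myh6 (2.27), replicate 3 low in Scd1 (2.64), and replicate 1 high in the neutrophil score (0.45, others -0.18 to 0.00079).

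In NRCWE-043, replicate 5 was low in Hoxc4 (-3.38), replicate 1 high in Cyp1a1 (0.34) and replicate 4 high in the matrix score (0.23). Of the controls, replicate 2 was low in Syk (1.12, others 1.62 to 1.77), replicate 1 was high in Ddx58 (0.79) and in the cell cycle score (0.34, others -0.13 to -0.06), and replicate 5 was low in the p53 score (-0.072). Control replicate 3, the array with NRCWE-043 in its title, was low in the alveolar type 1 score (-0.23, others 0.01 to 0.09) and high in the skeletal muscle score (0.26, others -0.16 to -0.04).

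The 3 materials differed from each other at 18 µg by the moderated F test in 16 units, among them Mei4, Clmp, Serpina1c, Tdh, Spon2, Acot2, Tspan4, Lonrf1 and Serpina1a, and 6 without a gene name. The adjusted p in limma was 0.0433 for Serpina1a and 0.0416 for each of the others, and none was called with slide as a block.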

How the results depend on the processing

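In the pooled 18 µg comparison 0 units were called under each of the 35 other settings, 19 of which left out 1 array, with a smallest adjusted p of 0.675 to 1 over the omissions. The 24 leading genes kept their sign in each setting that held a value for them. Cyp1a1, Fmo4, Fsd2, Grid2ip, Hoxb8 and Hoxc4 had values in 34 of the 35. These 24 genes were picked from the same arrays by lowest p and a common sign over the materials. Leaving out a material could therefore not change their sign, and leaving out 1 array was unlikely to. Their kept signs are no independent support. Of the 112 named genes 15, and of the 38 lists 23, changed sign somewhere (50 of 3897 and 128 of 1330 values). No paired analysis was possible because the labels give the groups no shared replicate numbers, and shared slides entered as a block and in within-slide values instead.

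Units at an unadjusted p under 0.05 and higher at 18 µg numbered 541 as reported, 983 with slide as a fixed and 862 as a random block, 1009 without NRCWE-043, 304 among units above background on all arrays, and 317 to 806 over the omissions (without control replicate 2 and without control replicate 3). Lower ones numbered 610, and 441 to 1017 over the same omissions. With median centring in place of loess 886 were higher and 202 lower (81.4% higher, against 47.0%), and the median of all units was 0.063. Of the units at an unadjusted p under 0.05, 58.6% were higher without NRCWE-043 and 58.0% from the scanner's processed signals. The medians of all units were 0.0029 and 0.0026 under these settings.

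Calls among the 3 materials numbered 16, and 0 with slide as a fixed block, 54 as a random block, 4 on the 19 arrays alone, 5 with array weights, 3 from the processed signals and from the authors' deposited series table, 9 with median centring, 0 with quantile normalization, 0 above background on all arrays, 0 with the mean of all probes, and 0 to 234 over the omissions. The cause was not tested. The pooled 54 µg comparison gave 4 calls with a random block, 3 with array weights and 0 to 1 over the omissions. NRCWE-045 at 18 µg gave 4 on the 19 arrays alone and 0 to 109 over the omissions. Of the 38 lists, 17 to 29 had a median above 0 over the omissions.

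These genes, none called in any setting, changed sign. With slide as a fixed block Col1a1 had 0.060, Hmox1 0.036 and Mmp12 -0.041, and as a random block 0.028, 0.019 and -0.020. Without NRCWE-043 Ccl2 had -0.027, Lcn2 -0.051 and Mmp12 -0.017. Without NRCWE-044 Col1a1 had 0.042. Without NRCWE-045 Arg1 had -0.086, Ccl2 -0.010, Cd80 -0.0093, Cxcl13 -0.19, Pck1 -0.33 and Serpina1a -0.15. With array weights Lcn2 had -0.0068. With the mean of all probes Ddx58 had -0.0011 and Hmox1 0.11. With median centring Col1a1 had 0.067, Hmox1 0.085 and Pnpla2 0.010, with quantile normalization Ccl2 -0.10 and Timp1 -0.020, and from the processed signals Ccl2 -0.022, Cxcl13 -0.32 and Slc34a2 0.12. Over the omissions Arg1 ran from -0.078 to 0.44, Ccl2 from -0.020 to 0.21, Col1a1 from -0.19 to 0.046, Cxcl13 from -0.33 to 0.45, Cxcl5 from -0.021 to 0.45, Hmox1 from -0.22 to 0.10, Lcn2 from -0.030 to 0.12, Mmp12 from -0.016 to 0.064 and Timp1 from -0.0080 to 0.12.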

Other observations

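Genes of the daily clock, stress and early response lists were measured in the same arrays. Immediate early genes had a median log2 difference of 0.11 in the pooled 18 µg comparison, with 13 of 17 above 0, and 7 exposed arrays scored above every control. Atf3, a stress-induced factor, had 0.36 ± 0.12 (0.22 without control replicate 5) and the nuclear receptor Nr4a1 0.64 ± 0.31. Heat shock genes had -0.08 (9 of 11 below 0) and 0.02 without control replicate 2, with Hspa1a at -0.46 ± 0.28 and -0.17 without control replicate 2. The clock list had -0.02, made of -0.25 with NRCWE-043, 0.12 with NRCWE-044 and 0.0092 with NRCWE-045, and the clock gene Per2 had -0.75, 0.12 and -0.36 in that order. The labels used here give no hour of necropsy.

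Genes of type 2 immunity had a median of -0.04 with 10 of 20 above 0, and single genes of the list ran from -2.01 to 0.47. Il4ra, a receptor chain for interleukins 4 and 13, was lower by value at -0.28 ± 0.11, with 11 of 14 exposed arrays below every control and -0.17 at its other probe. Natural killer, dendritic, MHC class II and complement lists had medians of 0.02, 0.0077, 0.02 and 0.02, and mesothelial genes had 0.11, which was -0.0083 without control replicate 1. Neutrophil genes had 0.063 (8 of 13 above 0), and -0.095 without NRCWE-045 replicate 1, and CXC chemokines 0.0096 (7 of 13). Among markers of blood and other tissues, hemoglobin genes had 0.095, skeletal muscle genes 0.063 and thymus genes 0.034. Arg1, an arginase of alternatively activated macrophages and of liver, had 0.03, -0.20 and 0.97 by material, and -0.08 pooled without NRCWE-045 replicate 2, the array with the highest liver score.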
